A study of Rattus norvegicus with 4 samples.

Results

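The interleukins of macrophages outside the interleukin-1 family were followed here in NR8383 cells, a macrophage line established from lung lavage of a normal rat. The genes were Il6, Il7, Il10, Il12a, Il12b, Il15, Il16, Il17b, Il23a and Il27, taken by name with every probe whose transcript accession maps to them. Of these 10 genes, 9 had at least one such probe, and 12 probes represented them among 21109 named probes for 16581 genes. No probe was matched to Il27, and its expression was not analysed here. The cells, at passage 20, had been exposed to Printex90 for 4 h. Printex90 is a commercial carbon black, and the labels give its dose as 0.9 cm2/cm2. The labels mark these cultures ALI, an abbreviation they do not spell out. One group of 4 biological replicates was measured, 1 array each, all on one slide and in one scan. The untreated cells of the series design were not analysed here, so no value is a response to the particles.

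Interleukins are secreted proteins through which leukocytes instruct each other. IL-6 and IL-12 belong to a family of helical cytokines whose receptors signal through JAK kinases and STAT transcription factors. IL-12, IL-23 and IL-27 are made of a helical subunit (encoded by Il12a, Il23a or Il27) and a receptor-like subunit (Il12b for IL-12 and IL-23, Ebi3 for IL-27). In macrophages Il6, Il12b and Il23a are known as genes that are nearly silent at rest and transcribed after Toll-like receptor stimulation. IL-10 is the main cytokine by which macrophages restrain inflammation. IL-7 and IL-15, known mostly from stromal and myeloid cells, sustain lymphocytes, IL-16 attracts CD4-bearing cells, and IL-17B is a less studied relative of the T cell cytokine IL-17A.

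The promoters of 3 members are shown because these genes fall into the 3 classes of detection found, with Il6 detected on no array, Il23a on 1 and Il17b on all 4. Each is the RefSeq sequence of assembly GRCr8 from 250 bases before to 50 bases after the annotated start, and 7 of the 10 members matched this table. Il7, Il10 and Il12b were not among them. Capitals mark matches on either strand to 4 motifs, which were chosen with these promoters in view. The motifs were GGGNNTTTC for NF-kB, TGACGTCA for the cAMP response element, TTNNGNAA for C/EBP factors and TGANTCA for AP-1. Their matches did not overlap one another in the sequences below.
Il6 promoter, GRCr8 chr4:5894526-5894825, minus strand: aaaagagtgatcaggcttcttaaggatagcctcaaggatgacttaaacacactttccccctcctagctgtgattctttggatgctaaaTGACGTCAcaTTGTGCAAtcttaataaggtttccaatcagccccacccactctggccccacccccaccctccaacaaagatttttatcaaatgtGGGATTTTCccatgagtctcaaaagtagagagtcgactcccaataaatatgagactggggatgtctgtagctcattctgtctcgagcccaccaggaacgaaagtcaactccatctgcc
Il23a promoter, GRCr8 chr7:1308385-1308684, minus strand: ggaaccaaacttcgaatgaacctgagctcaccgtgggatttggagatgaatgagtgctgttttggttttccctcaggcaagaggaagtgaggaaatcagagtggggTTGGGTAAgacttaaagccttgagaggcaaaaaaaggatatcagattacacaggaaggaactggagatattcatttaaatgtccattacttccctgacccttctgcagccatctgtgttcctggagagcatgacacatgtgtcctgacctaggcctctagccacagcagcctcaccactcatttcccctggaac
Il17b promoter, GRCr8 chr18:57411282-57411581, plus strand: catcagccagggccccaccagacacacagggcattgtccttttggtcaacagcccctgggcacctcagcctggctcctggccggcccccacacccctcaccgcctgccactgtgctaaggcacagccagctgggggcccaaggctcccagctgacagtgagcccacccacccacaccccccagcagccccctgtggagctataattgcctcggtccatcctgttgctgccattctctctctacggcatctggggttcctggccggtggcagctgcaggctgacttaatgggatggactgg

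The Il6 promoter held GGGATTTTC from 68 to 60 bases before the start, TTGTGCAA from 152 to 145 bases before it, and TGACGTCA from 162 to 155 bases before it. The Il23a promoter held one C/EBP match, TTGGGTAA, from 144 to 137 bases before the start, and the Il17b window held none of the 4. Among other members detected on no array, the Il12a window held none either, while those of Il15 and Il16 each held a C/EBP and an AP-1 match. The promoter shown for a class of detection thus does not stand for its other members. Among 33469 promoters of the same length, 4.53% held the NF-kB letters, 1.83% the cAMP response element, 41.3% the C/EBP letters and 7.33% the AP-1 letters. A match describes these letters alone, and the arrays did not measure any factor at these windows.

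Among the 9 measured interleukins, Il7 and Il17b were the 2 with a signal well above background on every array. This flag of the scanner software marks a spot whose background-subtracted signal clearly exceeds the noise of its background, and a gene counts as detected on an array when any of its probes carries it. Il23a was detected on 1 array, and Il6, Il10, Il12a, Il12b, Il15 and Il16 were detected on none. Over all named genes 50.8% were detected on all 4 arrays and 36.9% on none. For the odorant receptor genes of the nose, which serve as a measure of background here, detection on all 4 arrays was found in 41 of 1161 (3.53%). None of the 48 spots of the members carried an outlier flag, and each probe of the members was printed as 1 spot per array.

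**Figure D1:**
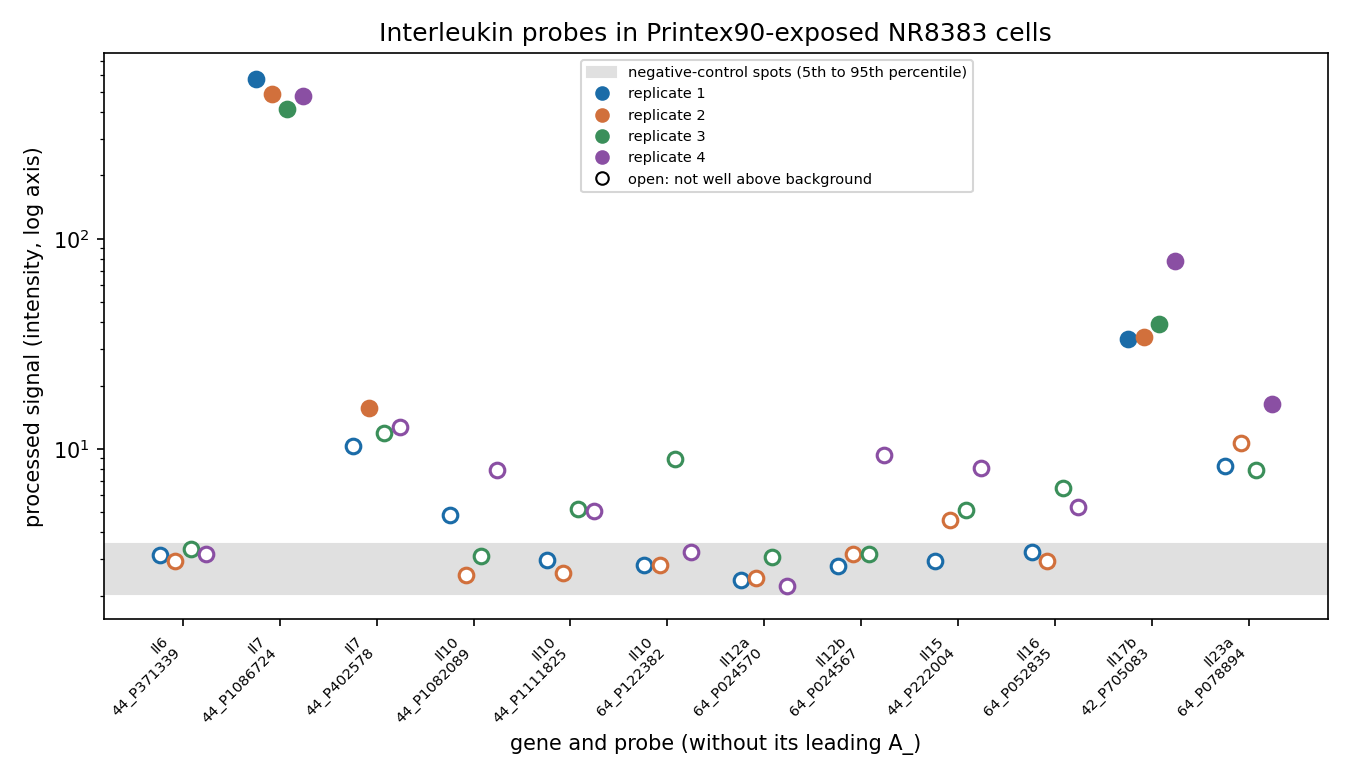
Processed signal (background-subtracted intensity, log axis) of the 12 probes of the interleukin genes on replicates 1 to 4, with filled points where the spot was well above background and a grey band for the 5th to 95th percentile of the negative-control spots, taken from the lowest to the highest of the 4 arrays. One probe of Il7 sits between 417 and 578, Il17b between 33.2 and 77.9, and the probes of Il6 and Il12a lie inside the band on every array.

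Il7 encodes the cytokine that lymphocyte precursors need for survival. Its brighter probe (A_44_P1086724) had processed signals of 578, 487, 417 and 480 on replicates 1 to 4, with errors of 57.9, 48.8, 41.8 and 48.1 given by the scanner software. All 4 signals lay far over the median of the negative-control spots, which was 2.72 to 3.19. On replicate 4, 2 of the 308 negative-control spots were at or above this probe, and on replicates 1 to 3 there were 0. Relative to the 75th percentile of each array, on the log2 scale used for levels below, Il7 stood at 2.54, 2.54, 2.05 and 1.92, a mean of 2.26 ± 0.33 (SD, n = 4). The highest and lowest level differed 1.54-fold. Replicate 4 was lowest on this scale, while replicate 3 was lowest in unscaled signal.

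The other probe of Il7 (A_44_P402578), annotated to the same transcript, gave signals of 10.3, 15.6, 11.9 and 12.7 and was well above background on replicate 2 alone. The brighter probe exceeded it 56.4, 31.1, 34.9 and 37.8 times on replicates 1 to 4. The detection of Il7 on all arrays thus rested on 1 of its 2 probes, and only Il17b remained among the detected members when every probe of a gene was required. Over both probes the mean level of Il7 was -0.38. Around the spot of the brighter probe, neighbouring spots within 4 rows and columns deviated from their median over the arrays by -0.06 to 0.06 on the log2 scale. This compares the arrays with each other and does not bear on a feature shared by all 4.

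Il17b was detected by its single probe (A_42_P705083), which read 33.2, 34.1, 39.3 and 77.9 on replicates 1 to 4, with errors of 4.00, 4.13, 4.98 and 8.08. The spot on replicate 4 was the brightest, and those of the other 3 replicates were close to each other. Of the 308 negative-control spots of each array, 0, 1, 5 and 2 were at or above Il17b on replicates 1 to 4. Relative to the 75th percentile the levels were -1.58, -1.30, -1.36 and -0.71, a mean of -1.24 ± 0.37 (SD, n = 4), with the highest 1.83-fold over the lowest. The neighbouring spots deviated by -0.15 on replicate 1 and by 0.18 on replicate 4, in the same direction as Il17b and by less.

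On the 75th percentile scale Il7 and Il17b varied between the replicates more than most detected genes. Their SDs of 0.33 and 0.37 had a median of 0.350, against a median SD of 0.165 over the 8424 detected genes, whose 5th to 95th percentile range was 0.060 to 0.411. An SD at least as large as that of Il7 was found for 923 detected genes, and one at least as large as that of Il17b for 592. The replicates deviated in different ways, since Il7 was lowest and Il17b highest on replicate 4. Without replicate 4 the median of the 2 SDs was 0.217. Scaled to the array median instead, it was 0.380, against 0.390 over all detected genes, so that the members no longer exceeded the other genes. That scaling raised the SD of the detected genes at large. The members still exceeded them with quantile normalization (0.337 against 0.159) and with the 75th percentile over detected probes (0.364 against 0.162). With 4 arrays these SDs are themselves imprecise.

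Il23a, which encodes the helical subunit of IL-23, lay at the border of detection. Its probe (A_64_P078894) read 8.31, 10.6, 7.91 and 16.4 on replicates 1 to 4, with errors of 3.47, 3.15, 3.54 and 3.56. The signal on replicate 4 was the only one well above background. On the scaled axis that replicate (-2.95) was level with replicate 2 (-2.98), whereas replicates 1 and 3 stood at -3.58 and -3.67. By the less strict flag of the software, which marks a signal as positive and significant, Il23a passed on all 4 arrays, as 61.7% of all named genes did. Replicate 4 also detected the most odorant receptor genes, 176 of 1161, against 69 to 99 on the other arrays.

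The partner subunit of Il23a was not detected. Il12b, the subunit shared by IL-12 and IL-23, read 2.78, 3.17, 3.14 and 9.38 on replicates 1 to 4. Its value on replicate 4 stood apart, yet it was not well above background, and of the 308 negative-control spots of that array 5 were as bright or brighter. Il12a, the other subunit of IL-12, read 2.37, 2.43, 3.05 and 2.21. On each array between 206 and 270 of the 308 negative-control spots reached or exceeded it. The errors of Il12a (2.39, 2.44, 3.06 and 2.22) were about as large as its signals, so this rank does not measure how bright the spot was. Il12a was at background in that no spot was well above it.

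Il6, the gene of an acute-phase cytokine, was also at background. Its signals were 3.11, 2.92, 3.35 and 3.14 with errors of about the same size (3.12, 2.93, 3.37 and 3.15), and 54 to 105 of the 308 negative-control spots were at or above it. With errors as large as the signals, agreement between the 4 replicates could not be judged from them. Il6 and Il12a were the 2 members that did not pass the less strict flag on any array, against 12.2% of all named genes.

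Il10 was measured by 3 probes, and none was well above background on any array. The first (A_44_P1082089) read 4.86, 2.50, 3.08 and 7.90 on replicates 1 to 4, the second (A_44_P1111825) 2.94, 2.56, 5.16 and 5.04, and the third (A_64_P122382) 2.79, 2.80, 8.91 and 3.22. The highest reading fell on replicate 4 for the first probe and on replicate 3 for the other probes. Il15, which encodes a survival factor of natural killer and memory T cells, read 2.93, 4.56, 5.12 and 8.11 and passed the less strict flag on 3 arrays. Il16, whose product is a ligand of CD4, read 3.23, 2.91, 6.47 and 5.26 and passed that flag on 2. All these signals lay below the lowest signal of any probe called well above background on their arrays, which was 9.31, 9.69, 10.3 and 9.17 on replicates 1 to 4.

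The chains through which these cytokines are received were detected in part. Of 12 measured receptor chains, 7 were detected on all 4 arrays, 2 on some and 3 on none, beside 50.8% of all named genes detected on all arrays. Il15ra, Il23r and Il27ra had no matched probe. The median level of the 7 detected chains was 2.22, against 1.80 over all detected named genes, as a description of different probes.

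**Figure D2:**
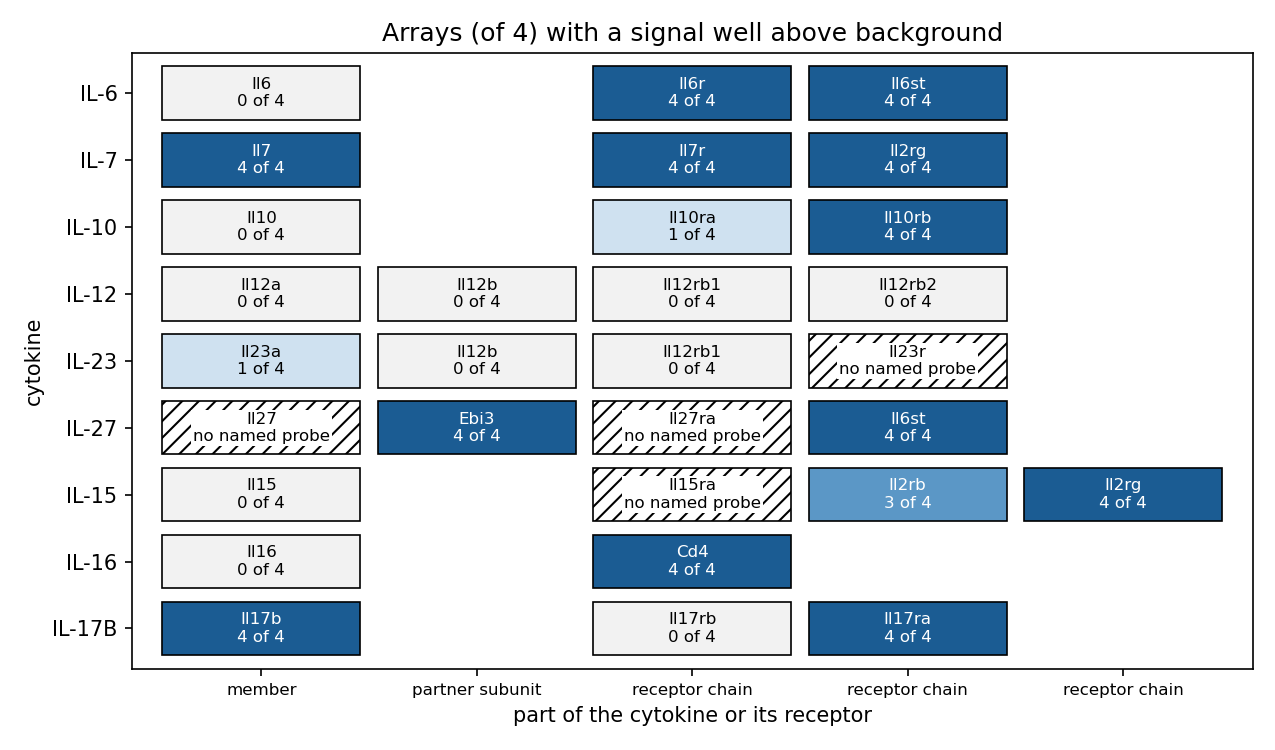
Number of arrays, of 4, on which each interleukin gene was well above background, likewise for its partner subunit and the chains of its receptor, with rows for cytokines, columns for the parts and hatched boxes for genes with no matched probe. IL-7 is the one row with its gene and all listed chains on 4 of 4 arrays, the IL-6 row has both chains without Il6, and the IL-12 row has 0 of 4 in every box.

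IL-7 was the one cytokine of the set whose gene and listed receptor chains were all detected on every array, with Il7 counted by 1 of its 2 probes. IL-27 could not be judged, since Il27 and Il27ra had no matched probe. Il7r, its specific receptor chain, had levels of 2.22, 2.34, 2.22 and 2.11, a mean of 2.22 ± 0.10 (SD, n = 4). Il2rg, the common gamma chain that IL-7 and IL-15 share with other cytokines, stood at 0.40, 0.48, 0.79 and 0.58, a mean of 0.56 ± 0.17 (SD, n = 4). The levels of both chains were similar on all 4 replicates. T cells also carry these chains, and of 8 T cell markers Cd3d, Cd28 and Lck were detected on all arrays, Cd3g on 1, and Cd3e, Cd2, Cd5 and Cd247 on none. For Cd28 only 1 of 2 probes was detected on all arrays. The log2 of the summed level of the T cell markers was 2.35 to 2.57 over the replicates, a value that cannot be set against other gene lists because their probes differ. The cultures were of a single cell line, and the source of the T cell marker signals was not tested.

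For IL-6 the receiving side was detected while the cytokine gene was not. Il6r, the ligand-binding chain, had levels of 0.59, 0.55, 0.89 and 0.55, a mean of 0.64 ± 0.17 (SD, n = 4). Replicate 3 was the highest, and the other 3 lay within a narrow range. Of the 2 probes of Il6r only 1 was detected on all arrays, and the mean over both was -1.58. Il6st, which encodes gp130, the signal-transducing chain of the whole IL-6 family, stood at 2.39, 2.23, 2.14 and 2.38 by its brighter probe, a mean of 2.29 ± 0.12 (SD, n = 4), and both of its probes were detected on all arrays, with a mean of 0.54 over the 2.

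IL-10 and IL-17B each had one chain detected on all arrays and a partner that was not. Il10rb, the accessory chain of the IL-10 receptor, had levels of 3.47, 2.86, 3.12 and 2.95, a mean of 3.10 ± 0.27 (SD, n = 4), with replicate 1 highest. Il10ra, the chain that binds IL-10, was detected on replicate 4 alone but passed the less strict flag on all 4 arrays. Il17ra, the chain shared by the receptors of the IL-17 family, stood at 7.43, 7.24, 7.43 and 7.12, a mean of 7.30 ± 0.15 (SD, n = 4). Il17rb, the chain that binds IL-17B, was detected on no array and passed the less strict flag on none.

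Among the remaining chains Il12rb1 and Il12rb2, which form the IL-12 receptor, were detected on no array. Il2rb, the beta chain of the IL-15 receptor, was detected on replicates 1, 2 and 4. Its level on replicate 3 was -4.23, against -2.33, -1.91 and -2.46 on replicates 1, 2 and 4. Cd4, the receptor of IL-16 and a molecule that rat macrophages are known to carry, had levels of 0.05, 0.37, 0.08 and 0.19, a mean of 0.17 ± 0.14 (SD, n = 4). The 4 replicates of Cd4 were close together, but only 1 of its 2 probes was detected, and the mean over both was -2.04.

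**Figure D3:**
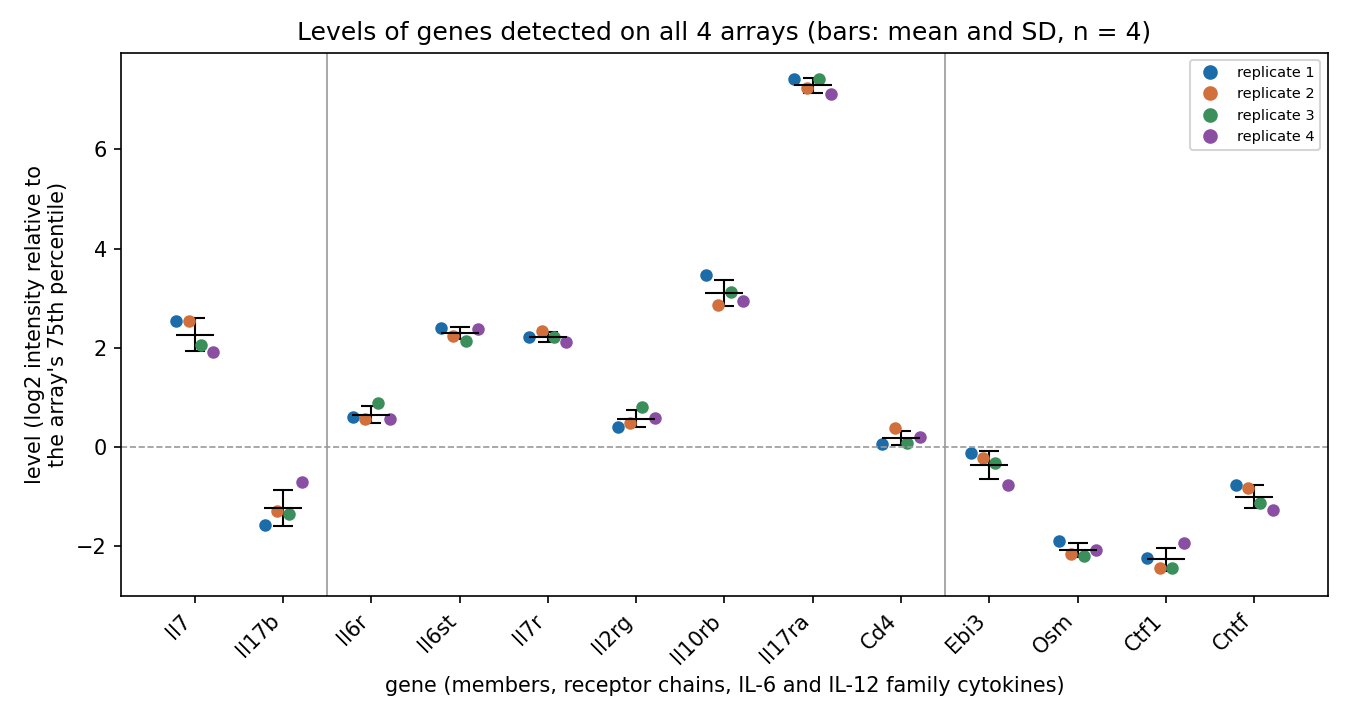
Levels (log2 intensity relative to the 75th percentile of the array) on replicates 1 to 4 for Il7 and Il17b, the 7 receptor chains and the 4 related cytokine genes detected on all arrays, with the mean and SD over the 4 arrays as bars. Only points of the same gene can be compared, with an SD of 0.33 for Il7 and 0.37 for Il17b and of 0.10 to 0.28 for the other genes.

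Related cytokines of the IL-6 and IL-12 families were detected on all arrays in 4 of 6 measured cases, beside 50.8% of all named genes. Ebi3, the receptor-like subunit of IL-27, had levels of -0.13, -0.24, -0.33 and -0.78, a mean of -0.37 ± 0.28 (SD, n = 4), with replicate 4 lowest. The gp130 ligand gene Osm, encoding the macrophage cytokine oncostatin M, stood at -1.90, -2.16, -2.21 and -2.09, a mean of -2.09 ± 0.14 (SD, n = 4). Cntf, a neurotrophic member of the family, had a mean of -1.01 ± 0.24 and Ctf1, encoding cardiotrophin, one of -2.28 ± 0.24 (SD, n = 4 for both). Lif was detected on replicates 1, 2 and 4, Il11 on no array, and Clcf1 had no matched probe.

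Of 15 measured interleukins best known from T cells, mast cells and epithelia, none was detected on all 4 arrays, 4 were on some and 11 on none. The 11 were Il2, Il3, Il4, Il5, Il9, Il13, Il17a, Il17c, Il21, Il22 and Il25. Over all named genes the shares were 50.8% on all arrays and 36.9% on none. Il34, a ligand of the macrophage growth factor receptor CSF1R, was detected on replicates 1, 2 and 4, and without replicate 3 it made 1 of 15. With outlier-flagged spots kept, Il34 was detected on all 4 arrays. Il20, a member of the IL-10 family, was detected on replicates 2 and 4. Il17f and Il24 were detected on replicate 3 alone. Il17d, Il19, Il31 and Tslp had no matched probe.

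The single detections of Il17f and Il24 came with local brightness. The Il17f spot read 2.89, 2.44, 1632 and 2.46 on replicates 1 to 4, and on replicate 3 the spots around it stood 3.04 above their median over the arrays on the log2 scale. Il24 was printed as 2 spots. On replicate 3 the first read 637, amid neighbours 0.55 above their median, and the second, elsewhere on the array, read 3.08. The other 3 arrays gave 2.48 to 2.91 for the first spot of Il24 and 3.01 to 5.83 for the second. Around the first spot the neighbours also deviated by -0.36 on replicate 4. The part of local brightness in the bright Il17f and Il24 readings was not tested.

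The signalling genes below the receptors were mostly detected. Of 12 JAK, STAT and SOCS genes, 9 were detected on all arrays, beside 50.8% of all named genes. Jak1, the kinase of the IL-6, IL-7, IL-10 and IL-15 receptors, had a mean level of 5.56 ± 0.33, with 5.06 on replicate 4 against 5.70 to 5.76 on the other 3 arrays. The mean over both probes of Jak1 was 3.58. Jak2 and Tyk2, the kinase pair of the IL-12 and IL-23 receptors, stood at 0.03 ± 0.25 and -0.01 ± 0.17 (SD, n = 4 for all), and the mean over both probes of Tyk2 was -0.80. Jak3, the kinase bound to the common gamma chain, was detected on replicate 4 alone, at -3.39 against -5.32, -3.12 and -3.85 on replicates 1 to 3. Stat4, the factor activated by IL-12, and Socs1, an inhibitor of JAK kinases, were detected on no array. Stat3, Stat5a, Stat5b, Socs3 and Cish were also detected on all arrays.

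Regulators known, mostly from mouse macrophages, to control Il6, Il12b and Il10 were detected on all arrays in 10 of 13 measured cases. The share over all named genes was 50.8%. The NF-kB subunits Nfkb1 and Rela had levels of 1.89 ± 0.20 and 3.00 ± 0.12, and Bcl3, a nuclear IkB protein, one of 2.02 ± 0.14 (SD, n = 4 for all). The C/EBP factors Cebpb and Cebpd stood at 7.71 ± 0.19 and 3.44 ± 0.27 (SD, n = 4 for both). Different probes disagreed for Nfkb1, Bcl3 and Cebpb, whose means over all probes were 0.05, -1.04 and 5.49. Irf1, Irf5, Maf, Atf3 and the RNase gene Zc3h12a were the other detected regulators. Zfp36, whose product speeds the decay of cytokine mRNAs, was detected on 2 arrays, while Irf8, a factor used for Il12b, and Arid5a, which stabilises Il6 mRNA, were on none. Rel, Nfkbiz and Rc3h1 had no matched probe. Il6, whose promoter above holds NF-kB and C/EBP letters, was at background in cultures where Nfkb1, Rela, Cebpb and Cebpd had a signal on all 4 arrays. These signals are RNA, and a relation between them and Il6 was not tested. The C/EBP letters were found in 41.3% of all promoters.

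The cultures carried macrophage markers. Of 10 such genes 8 were detected on all arrays (Cd68, Csf1r, Itgam, Spi1, Lyz2, Fcgr2b, Cd14 and Tyrobp), and Adgre1 was on 2. Of all named genes, 50.8% were detected on all arrays. For markers of other cells the number on all arrays was 2 of 4 for B cells (Pax5 and Ebf1), 2 of 5 for dendritic cells (Clec9a and Cd83), 2 of 5 for neutrophils (Camp and Lcn2), 1 of 6 for mast cells (Hdc) and 1 of 6 for epithelium (Elf3). Only part of the probes was detected on all arrays for Ebf1 (2 of 5), Clec9a (1 of 2) and Hdc (1 of 2). The arrays detected 8917 to 9985 named genes each, with the fewest on replicate 3 and the most on replicate 4.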

How the data were processed

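Total RNA of 4 exposed cultures was labelled with Cy3 and hybridised to 1-colour Agilent rat arrays. The authors deposited linear spot intensities. The submitters' processing notes name Agilent Feature Extraction 11.0.1.1. Per the file headers the array grid refers to rn4, so no gene coordinates were taken from it. The promoter coordinates are those of GRCr8. The processed signal is background-subtracted by the authors' scanner software, with no normalization between arrays. The other columns used are spot flags (0 or 1) as deposited.

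An array has 62976 spots, and its 58717 non-control spots represent 45598 probes. Transcript accessions without version were matched to the RefSeq gene table of GRCr8, which named 21109 probes and left 24489 unnamed. Spots with a non-uniformity or population outlier flag were left out (750 to 1551 an array). A probe's level is the mean log2 signal of its spots minus the 75th percentile of all non-control probes on that array (83.8 to 127 as an intensity). A gene's level is that of its probe with the highest mean. No spot of the non-control probes was saturated.

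The 4 arrays form 1 group, so no test between groups exists and all values are descriptions. The replicates are biological per the series design, and share a slide and a scan. The members and lists were chosen with earlier results of these data known. All members are given with every probe. Of the receptor and cytokine lists, genes detected on all arrays are given with values, and of the signalling and regulator lists the first 5 measured genes are. Jak3 is among these. Some items of these lists are not reported here. Il2rb, Il17f and Il24 were singled out after their values were seen. Alternatives were other detection rules, scalings, probe summaries and leaving out each replicate. Normexp with an offset of 50 was run on median signals, since the files hold no mean signals. The level, SD and detection steps were tested on simulated data. Software was Python 3.11.15 with numpy 2.4.6, pandas 2.3.3 and matplotlib 3.10.9, and R 4.3.3 with limma 3.58.1.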

Additional observations from a re-analysis of the deposited data

Results flagged for a closer look

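Among 55 sets of 4 levels looked at, 5 had one replicate far from the other 3 by Dixon's test, which sets the gap to the nearest value against the whole range. Chance flags about 1 in 20 such sets. Il17f (ratio 0.939) stood at 4.01 on replicate 3, against -5.10, -5.10 and -5.69 on replicates 1, 2 and 4. Il34 (0.931) was low on replicate 3, at -4.83 against -2.95, -2.96 and -2.82. Its level on replicate 3 leaves out a spot with an outlier flag. With such spots kept, Il34 was detected on that array too. Jak1 (0.914) was low on replicate 4, at 5.06 against 5.76, 5.70 and 5.71. Il6r (0.892) was high on replicate 3, at 0.89 against 0.59, 0.55 and 0.55. Il11 (0.843) was detected on no array, and read -5.57 on replicate 4 against -4.93, -4.87 and -4.98. None of the 10 genes followed as members was among the 5.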

How the results depend on the processing

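The 2 members detected on all arrays numbered 3 with the less strict flag, 2 when 3 arrays were enough, 2 without any one replicate, and 1 when each probe of the gene had to be detected. The 6 members detected on no array numbered 2 with the less strict flag and 6 to 7 without one replicate. Of the interleukins of T cells, mast cells and epithelia, 0 were detected on all arrays. The number was 3 with the less strict flag (Il13, Il20 and Il34) and 1 when 3 arrays were enough. It was 1 with outlier spots kept (Il34), and 0 to 1 without one replicate. The median SD of 0.350 was 0.203 with normexp on median signals, against 0.142 over all detected genes. It was 0.217 to 0.403 without one replicate. The counts for the other 4 lists stayed within 1.5 times under each detection rule and without any one replicate. A level's place relative to the scaling point depends on the scaling. Il7 turned negative with the 75th percentile over detected probes (-1.15) and with the mean of its probes (-0.38), and Il17b turned positive with the array median (2.34). These scalings moved the median level of all detected genes by -3.41 and 3.57, and normexp moved it by -0.46. Replicate 4 was lowest for Il7 under every scaling, background correction and probe summary run. It was highest for Il17b under each of them except the array median, where replicate 3 read 2.64 and replicate 4 read 2.61. Normexp on mean signals could not be run. The order of signals that are not well above background is not interpreted. No paired analysis was possible because all samples belong to one group.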
